A study of Mus musculus with 18 samples.

Results

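5-Methylcytosine (m5C) on RNA was compared between a longer and a shorter deprivation of oxygen and glucose. The comparison took in the 3 bisulfite libraries with the label OGD/R 3 h and the 3 with the label OGD/R 1.5 h, which are 6 of the 18 samples of the series. All samples are labelled as cortical neurons of C57BL/6 mice, taken at day 18 of fetal life and grown in primary culture. The deprived cultures were held without glucose under hypoxia for 3 h or 1.5 h and then returned to normal medium and oxygen for 24 h. The 3 bisulfite libraries of untreated cultures (control) are given beside the 2 groups as background, and the 9 mock libraries were not analysed here. The RNA was depleted of rRNA before bisulfite treatment. Nothing in the labels says whether the replicates of a group came from separate litters or cultures.

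Bisulfite turns unmethylated cytosine into uracil and leaves m5C as cytosine, so a cytosine that is still read as cytosine is called as methylated. An unmethylated cytosine that was not converted would be read in the same way, and conversion was not tested here. On mRNA, m5C is written mainly by NSUN2, which is known for sites followed by guanines (CNGGG), and by NSUN6, which is known for CTCCA sites. ALYREF and YBX1 bind the mark, with roles in the export and stability of mRNA. On tRNA and other small RNAs, m5C protects the molecule from cleavage, and stress is known to change this. Deprivation of oxygen and glucose followed by reoxygenation is a culture model of ischemic stroke.

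Each deposited file lists the sites of 1 library with a score. The score is the whole part of 10 times the call score of meRanCall and is capped at 1000, and it grows with the coverage and the level of a site together. Neither the methylation level nor the read depth can be read from it, so the depth is unknown and the number of sites is given instead. A site needed a coverage of at least 10 and a level of at least 0.1 to be listed. The number of sites in a gene therefore depends on the amount of its RNA as well as on its methylation, and fewer cells of a type cannot be told apart from less RNA per cell. The coverage that the study lists for part of the OGD/R 3 h sites differed between the 3 replicates by less than the sampling noise, and the 3 libraries of a group were counted as 1 sample. No coverage was held for OGD/R 1.5 h, so this was not checked there, and the same count of 1 sample was applied to it. No p-value was computed. Taken as 3 against 3, the smallest two-sided exact permutation p would have been 0.1. The SD given after a mean is the spread over the 3 libraries of the group (n = 3 libraries, 1 sample), and a difference is described by whether the libraries of the 2 groups overlap.

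The labelled cell type went against its markers. None of 40 neuron markers, among them Tubb3, Map2, Snap25 and Syt1, carried a site in any of the 6 libraries or in the control libraries. With 0 of 3508 to 5269 mRNA sites in such genes, counting error was taken to allow up to 3 sites per library. That is 0.0855% in the smallest and 0.0569% in the largest library, with every site taken as an independent draw. Sites lie in clusters within genes, so the share allowed may be larger. Of 18 markers of astrocytes and oligodendrocytes, only Aldh1l1 carried a site in the 6 libraries, in 2 of OGD/R 1.5 h and in 1 of OGD/R 3 h. In the control libraries this list held 2, 1 and 1 sites, of which Aldh1l1 had 0, 0 and 1. In contrast, 50 of 56 markers of intestinal epithelium carried sites in the 6 libraries. Among all 21013 annotated protein-coding genes, 2186 did. The marker lists were chosen with earlier results of these data known, so these counts are a description and no independent test of cell type. The libraries are therefore called by their labels below and not described as neurons, and the part that other cell types have in the results was not tested.

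More sites on fewer genes were found after the longer deprivation. The OGD/R 1.5 h libraries held 3508, 3556 and 3749 sites on mRNA, and the OGD/R 3 h libraries held 5269, 4733 and 4739. Every OGD/R 3 h library was above every OGD/R 1.5 h library, with means of 4914 ± 308 and 3604 ± 128 sites, a ratio of 1.36. The number of genes with a site went the other way. It was 1264, 1264 and 1270 genes in OGD/R 1.5 h and 1162, 1104 and 1113 in OGD/R 3 h, again without overlap. A gene with a site thus held 2.85 ± 0.0930 sites at 1.5 h and 4.36 ± 0.152 at 3 h, a ratio of 1.53. When every library was brought to 3508 sites by the exact rarefaction formula, 1264, 1256 and 1232 genes were left at 1.5 h and 1006, 986.5 and 993.6 at 3 h. The control libraries held 1280, 1300 and 1274 genes when brought to 3508 sites, and 1318 to 1398 before this, above both groups each time.

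Sites were also more unevenly spread over genes at 3 h. Of the genes called at all, 46.2% ± 0.978 had just 1 site at 1.5 h and 34.5% ± 1.89 at 3 h. Genes with more than 8 sites made up 5.90% ± 0.186 and 11.6% ± 0.445. More than 20 sites were carried by 4 to 10 genes at 1.5 h and by 31 to 41 genes at 3 h.

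**Figure D1:**
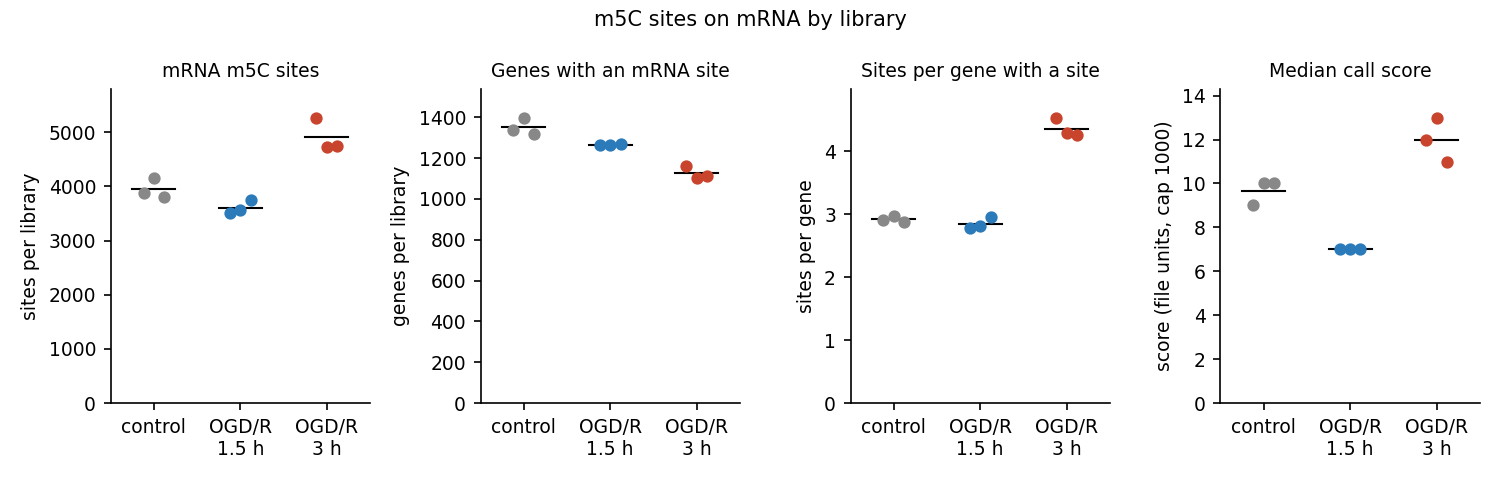
Number of mRNA m5C sites, number of genes with a site, sites per gene and median call score, by library (points) with the mean of each group (bar), for control and both deprivation times. The OGD/R 3 h libraries lie above both other groups in sites, sites per gene and score and below both in genes.

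Few sites were shared between the deprivation times. The 3 libraries together held 7066 mRNA sites at 1.5 h and 8280 at 3 h, and 1513 were in both, which is 21.4% of the former and 18.3% of the latter. A pair of libraries within a group shared 29.8 to 30.6% of their joint sites at 1.5 h and 42.8 to 45.4% at 3 h. A pair across the groups shared 6.52 to 7.29%. Genes overlapped more than sites, since 1007 of 1746 genes at 1.5 h (57.7%) and of 1447 at 3 h (69.6%) carried a site at both times. As many as 2117 sites in 697 genes were called in every OGD/R 3 h library and in no OGD/R 1.5 h library, and 920 sites in 580 genes showed the opposite pattern. Of the former, 1858 were also absent from all control libraries, and of the latter 631. The score cap was reached in all 3 libraries by 93 of the sites found only at 3 h and by 3 of those found only at 1.5 h.

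To find the genes behind these numbers, a gene was called where every library of one group held more of its sites than every library of the other and the ratio of (mean sites + 1) was at least 1.5. Among 2186 genes with an mRNA site in any of the 6 libraries, 418 (19.1%) were called with more sites at 3 h and 293 (13.4%) with fewer. With sites counted as shares of their library, the split turned to 362 with more and 398 with fewer. The changes upward were the larger ones. A rise of at least 10 sites was seen in 37 genes and a fall of at least 10 in 0, and the median difference was 3 sites among the genes called up and -2 among those called down. Over all genes tested the median log2 ratio was 0. Of the genes that rose, 180 held no site at all at 1.5 h, and of those that fell, 218 held none at 3 h.

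The 10 largest rises together made up 23.6% of the difference of 1309 mRNA sites between the groups. Fcgbp, which encodes a mucus protein of goblet cells, led with 12, 16 and 13 sites at 1.5 h and 72, 69 and 66 at 3 h. Actb (beta-actin) held 21, 25 and 25 sites against 82, 74 and 74. Tmsb4x, which encodes the actin-sequestering peptide thymosin beta 4, went from 1, 1 and 4 sites to 39, 39 and 38. In all these genes the lowest OGD/R 3 h library stood well above the highest OGD/R 1.5 h library, and the control libraries, with 10 to 13 sites for Fcgbp, 30 to 38 for Actb and 1 to 3 for Tmsb4x, were near or a little above the OGD/R 1.5 h values. Hbb-bs, an adult beta-globin gene, carried no site at 1.5 h or in control and 25 in each OGD/R 3 h library. Globin and actin genes have near-identical copies, and how reads were divided between such copies was not tested.

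The other 6 of the 10 largest rises were of 19.3 to 28.3 sites. Gna11, a G protein alpha subunit, had 8 to 12 sites at 1.5 h and 33 to 38 at 3 h. Ctnnb1 (beta-catenin) had 9, 11 and 17 sites against 42, 39 and 27. Slc6a8, the creatine transporter, had 5 to 7 against 25 to 31. A pair of membrane proteins known from amyloid biology rose as well, with 18, 19 and 21 sites against 47, 43 and 31 in App and 24, 16 and 18 against 58, 36 and 49 in Itm2b. Eef1a1, the elongation factor that carries aminoacyl-tRNA to the ribosome, had 6, 5 and 6 sites at 1.5 h and 31, 21 and 23 at 3 h, with 0 to 1 in control. The spread within OGD/R 3 h was widest in Itm2b, with an SD of 11.1 sites.

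The falls were smaller. Brpf3, a scaffold of a histone acetyltransferase complex, held 12, 13 and 16 sites at 1.5 h and 5, 5 and 2 at 3 h. Baz1b, a chromatin remodelling factor, had 8 to 12 against 2 to 4, and Acin1, whose protein binds the exon junction complex, had 10 to 16 against 5 to 6. Plekha5 had 10 sites in each OGD/R 1.5 h library and 0, 0 and 2 at 3 h. Tnik, a kinase of the Wnt pathway, had 8, 10 and 6 against 0, 1 and 0. Cep350 (a centrosomal protein), Acbd5 (a peroxisomal tether) and Sec24a (a subunit of the COPII coat) had 4 to 13, 7 to 10 and 8 to 10 sites at 1.5 h and 1 to 2, 1 to 3 and 1 to 5 at 3 h. Homer2, a scaffold protein of the postsynaptic density, had 5, 6 and 7 sites and none at 3 h. For Kif1b, a kinesin, the 1.5 h values were 3, 3 and 12 against none, so that most of its fall came from 1 library.

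**Figure D2:**
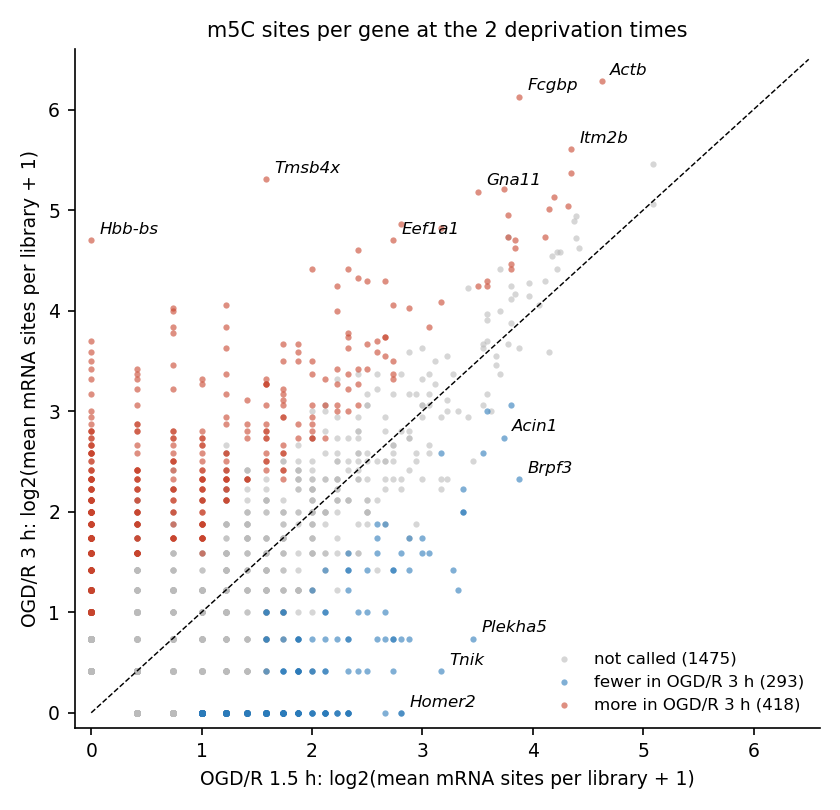
Mean mRNA sites per library of each gene as log2(mean + 1), OGD/R 1.5 h on the x axis and OGD/R 3 h on the y axis, with equal values on the dashed line. The 418 genes called with more sites at 3 h lie above the line, with Actb and Fcgbp highest on the y axis, while the largest fall among the 293 called with fewer, in Brpf3, is 9.67 sites per library.

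Gene groups were then described by how many of their members were called, to be read against the 19.1% and 13.4% of all genes with a site. The lists were chosen with earlier results of these data known, so their counts are a description only. A member was counted if it had a site in any of the 6 libraries. A member without sites at 1.5 h therefore cannot be called with fewer, and a member without sites at 3 h cannot be called with more. Markers of intestinal epithelium stood furthest from these shares among the lists with many members. Of the 50 members with a site, 28 were called with more sites at 3 h and 1 with fewer, and the median log2 ratio was 0.94. Summed over the list, the OGD/R 1.5 h libraries held 135, 131 and 147 sites, the OGD/R 3 h libraries 411, 380 and 416, and the control libraries 212, 224 and 214. The control libraries thus lay between the deprivation times. After Fcgbp the largest differences were in Pigr, the receptor that carries IgA across epithelium, with 7 to 9 sites against 26 to 29. Apob, the main protein of chylomicrons, had 2 to 4 against 19 to 21. The mucin Muc2 had 1, 0 and 1 against 14, 14 and 17.

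Of the neutrophil and bone marrow list, 5 of 35 members carried a site, and all 5 had none at 1.5 h and were called with more. Each was counted through its OGD/R 3 h sites alone, so none could have been called with fewer. The list summed to 0 sites in each OGD/R 1.5 h library, 38 in each OGD/R 3 h library and 1 to 2 in control. Cyba, a subunit of the phagocyte NADPH oxidase, had 11 sites in each OGD/R 3 h library, and S100a8 and S100a9, the calprotectin subunits, had 9 and 7. Anxa1, which encodes the anti-inflammatory protein annexin A1, had 6. Among 22 erythroid markers, 18 carried no site. Of the other 4, 3 were called with more, and besides Hbb-bs these were Hbb-bt, with 0 against 6 in each library, and Tfrc, the transferrin receptor, with 1, 1 and 2 against 4 in each. The remaining one, Bpgm, had 0, 1 and 1 against none and was not called. Hbb-bs and Hbb-bt were likewise counted through OGD/R 3 h alone, and Bpgm through OGD/R 1.5 h alone. For each of the genes called with more the number of sites was the same in all 3 libraries of OGD/R 3 h.

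Genes of antigen presentation rose together. Of 8 members of the lymphocyte and antigen presentation list with a site, 6 were called with more and 0 with fewer. H2-D1 and H2-K1, which encode class I molecules, had 3 to 4 and 1 to 2 sites at 1.5 h and 13 to 16 and 8 to 14 at 3 h. These genes are near-identical copies of each other in part, so reads may have been divided between them. H2-Ab1 and Cd74, of the class II pathway, had 0 to 1 and 0 to 2 sites against 8 to 10 and 7 to 10. Smooth muscle and fibroblast markers gave no such picture, with 1 called up (Acta2) and 1 called down (Des) of 10. In total, 77 genes of the intestinal, erythroid, neutrophil, smooth muscle and antigen presentation lists carried a site, and without them 375 genes were called with more sites and 291 with fewer.

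Lists of stress and protein synthesis held members called with more sites, in several of them at a share near the 19.1% of all genes. In the unfolded protein and endoplasmic reticulum stress response, 6 of 16 members with a site were called with more and 0 with fewer. The lectin chaperone Calr went from 3, 4 and 5 sites to 21, 21 and 19. The disulfide isomerase P4hb had 4 to 6 against 11 to 13, and the chaperone Hsp90b1 5 to 9 against 12 to 15. Canx, the membrane-bound partner of Calr, had 18 to 21 against 23 to 34 sites and did not reach the ratio. Among chaperones and protein folding, 5 of 21 (23.8%) were called with more, led by Hspa4 (1 to 3 against 8 to 13), and 0 with fewer. As a share of all mRNA sites this list overlapped between the groups (0.6271 to 0.7312% against 0.7184 to 0.8652%). In apoptosis, 3 of 7 were called with more, among them the survival factor Bcl2l1, with no site against 4 in each library. In the oxidative stress response, 4 of 16 were called with more and 1 with fewer. Txn1 (thioredoxin) had no site at 1.5 h against 9 to 10, and Gpx1 (glutathione peroxidase) 2 to 3 against 6 to 8.

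Cytosolic ribosomal proteins counted 7 with more (25.9%) and 1 with fewer among 27, with Rpl8 at 4 to 5 sites against 18 to 20. Translation factors counted 9 and 5 of 28, a split that turned to 5 and 6 with sites taken as shares of the library. Besides Eef1a1 their largest differences were in Eif4h, Eef2 and Eif4g2, at 10 to 15, 11 to 14 and 3 to 5 sites against 21 to 27, 20 to 21 and 9 to 10. In the nuclear-encoded respiratory chain, 13 of 49 were called with more and 6 with fewer. Atp5e, a subunit of ATP synthase, had 0, 1 and 1 sites against 14, 15 and 17, and Uqcrc1, a core protein of complex III, went the other way with 4, 5 and 8 against 0, 1 and 0. In the actin cytoskeleton, 9 of 37 were called with more and 3 with fewer, or 7 and 6 as shares of the library. Next to Actb and Tmsb4x stood Myh9 (non-muscle myosin, 11 to 15 against 27 to 35) and Pfn1 (profilin, 11 to 15 against 22 to 30). Of the 14-3-3 adaptor proteins, 1 of 5 was called, Ywhaz, with 5 to 6 sites against 15 to 25. As a share of all mRNA sites, the respiratory chain list overlapped between the groups (2.195 to 2.587% against 2.581 to 2.975%). The 14-3-3 list overlapped likewise (0.7312 to 0.8802% against 0.824 to 1.006%).

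Chromatin regulators had the lowest share of rises among the lists with at least 20 members with a site. Of 39 members with a site, 2 were called with more and 9 with fewer, and the median log2 ratio was -0.58. The acetyltransferase Crebbp had 5, 3 and 5 sites against 0, 1 and 0, and Arid4a had 6 to 8 against 0 to 3. Nsd1, a histone H3 lysine methyltransferase, and Kdm1a, a lysine demethylase, went against the rest of the list, at 5 to 8 against 13 to 18 and no site against 5 to 7. Splicing and RNA-binding proteins had 9 called up and 10 called down of 64. As a share of all mRNA sites, this list was lower at 3 h without overlap (3.487 to 3.948% against 2.828 to 3.19%). Hnrnpu, with 18 to 20 sites against 29 to 34, and the helicase Ddx5, with no site against 6 to 7, were among those that rose. The proteasome and ubiquitin pathway was split at 5 and 5 of 24, and in vesicle trafficking 15 were called up and 7 down of 55, with the small GTPases Arf6 (3 to 5 against 12 to 13) and Rab1b (0 to 1 against 6 in each library) among the rises. As shares of all mRNA sites these lists overlapped between the groups. The proteasome list stood at 0.8269 to 1.254% against 0.823 to 1.101%, and vesicle trafficking at 2.475 to 2.936% against 2.505 to 2.659%.

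Among all 21013 annotated protein-coding genes, 2186 carried a site, and in the hypoxia-inducible factor pathway 4 of 29 members did. Of these, 0 were called with more and 2 with fewer, the stress-induced Ndrg1 (2, 1 and 1 sites against none) and the MYC antagonist Mxi1 (1 in each library against none). Vegfa, the vascular growth factor, had 2 in each library against 1, 2 and 1. In glycolysis, 1 of 8 was called, Gpi1, with no site against 3, 1 and 3. Aldoa held more sites than any other member and overlapped between the groups at 12, 13 and 19 against 22, 17 and 11. Among the writers, readers and erasers of m5C, 4 of 19 carried a site. Alyref, the reader that exports mRNA, had none at 1.5 h and 3, 2 and 2 at 3 h, and Ythdf2 had 2, 1 and 2 against none. Ybx1, at 2 to 4 against 3 to 7, and Tet3, at 2 to 5 against 0 to 6, overlapped.

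**Figure D3:**
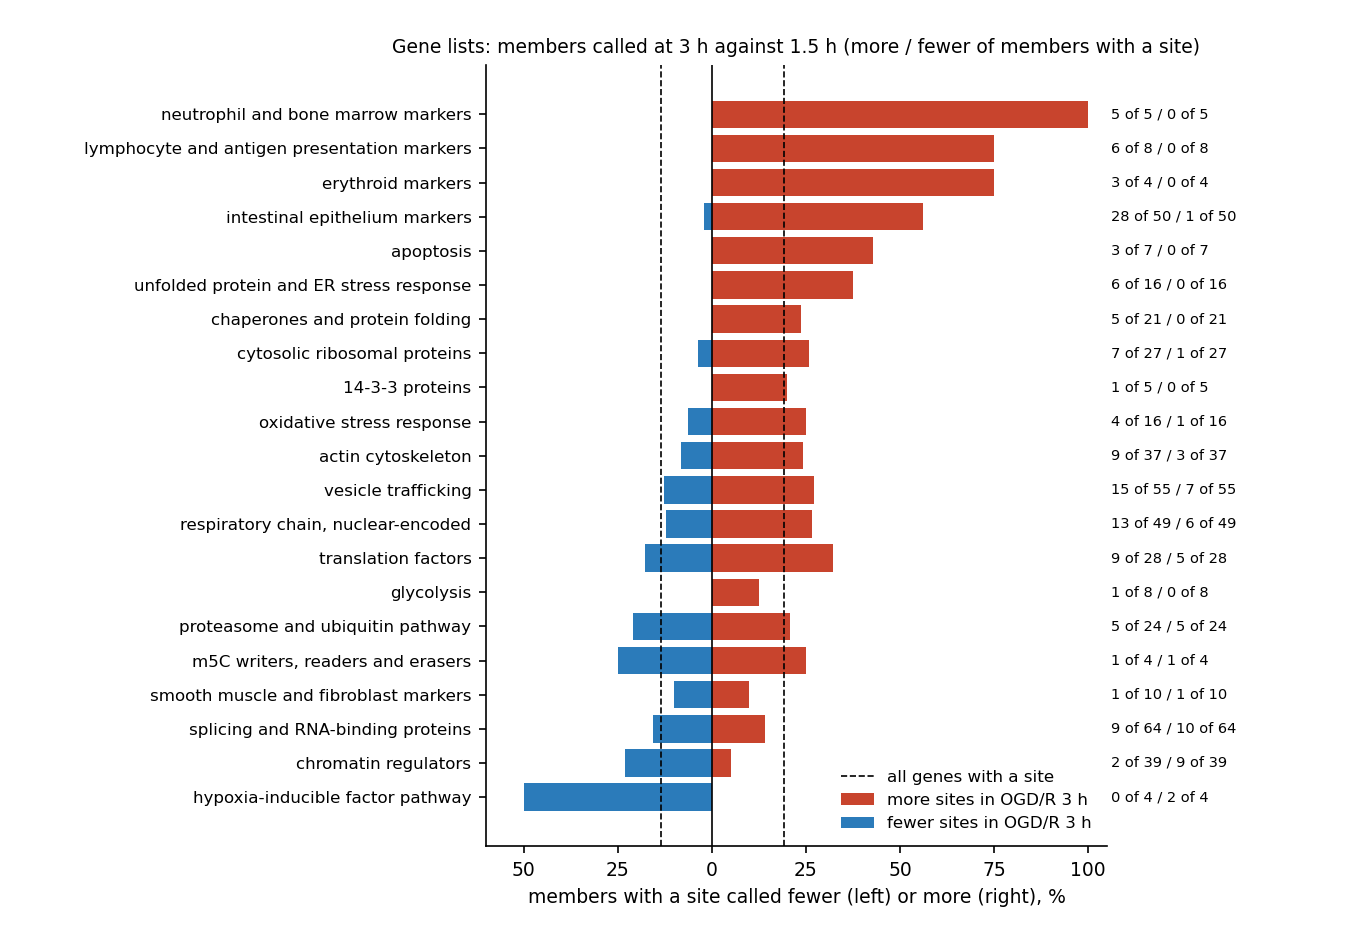
Share of the members with a site that were called with more (red, right) or fewer (blue, left) sites in OGD/R 3 h, for the 21 lists with at least 4 such members, with the counts at the right and the shares among all genes as dashed lines (19.1% and 13.4%). Markers of neutrophil, antigen presentation, erythroid and intestinal cells reach farthest to the right, and the hypoxia-inducible factor and chromatin lists lean to the left. No neutrophil member had a site in OGD/R 1.5 h, so none could be called with fewer.

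The position of sites along the mRNA differed as well. The start codon region, 100 nt on either side of the start codon, held 24.7, 23.7 and 21.5% of the sites of the OGD/R 1.5 h libraries and 29.0, 30.6 and 33.6% of those of the OGD/R 3 h libraries. The rest of the coding sequence fell from 57.5% ± 2.05 to 46.6% ± 2.84, also without overlap. The 5′ UTR (7.0% ± 0.592 against 8.63% ± 0.657), the stop codon region (5.01% ± 0.278 against 5.95% ± 0.179) and the 3′ UTR (7.21% ± 0.148 against 7.80% ± 0.151) were each higher at 3 h by small amounts. Counted per 1000 cytosines of the transcripts called at each time, every region held more sites at 3 h. More sites on fewer transcripts (8280 on 1468 at 3 h, 7066 on 1768 at 1.5 h) raise this count in general. The regions are therefore to be read against each other. The start codon region held 14 sites at 1.5 h and 23.3 at 3 h, the coding sequence 4.96 and 6.68, the 5′ UTR 5.20 and 8.79, the stop codon region 4.21 and 7.21 and the 3′ UTR 0.907 and 1.60. Much of the difference lay just before the start codon. The 100 nt upstream of it held 9.82 to 11.3% of the sites at 1.5 h and 15.5 to 17.4% at 3 h, while the first 100 nt of the coding sequence held 11.5 to 13.3% and 13.3 to 16.0%. The first 100 nt of the transcript held 6.78% ± 0.526 and 11.9% ± 0.671.

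**Figure D4:**
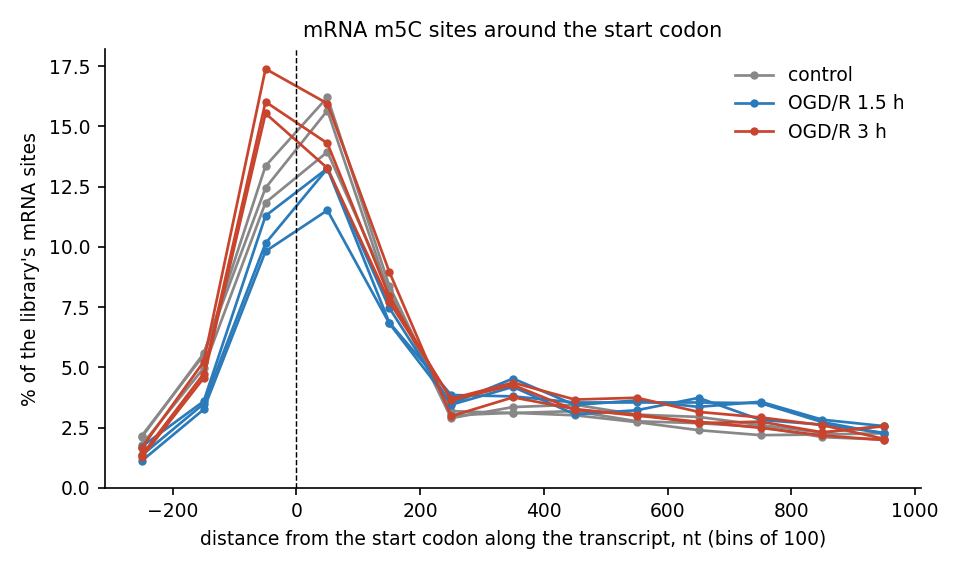
Share of each library's mRNA sites in bins of 100 nt around the start codon (x axis, distance along the transcript), with 1 line per library, coloured by group. All libraries peak at the start codon, and the OGD/R 3 h lines stand highest in the bin just upstream of it, at 15.5 to 17.4%.

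Adenine after the site was less frequent at 3 h, and CHH sites were more frequent. Sites in the CHH context (H stands for A, C or T) made up 36.8 to 38.9% at 1.5 h and 40.6 to 42.8% at 3 h, while CHG made up 39.9% ± 0.294 and 37.2% ± 0.552. The CG context, at 22.0% ± 0.891 and 21.0% ± 0.737, overlapped between the groups. Of all cytosines in the transcripts with a site, 63.7% were in CHH at both times. The base after the site was adenine in 22.6% ± 0.429 of sites at 1.5 h and in 14.3% ± 0.486 at 3 h, with 19.5% in control. It was cytosine in 24.4% ± 0.0138 and 29.8% ± 0.170. The CNGGG motif of NSUN2 type was held by 3.48% ± 0.0765 and 3.32% ± 0.0747 of sites, against 1.96% and 1.99% of all cytosines of these transcripts. The CTCCA motif of NSUN6 type was held by 0.482% ± 0.101 and 0.406% ± 0.0593 of sites, which overlapped, against 0.715% and 0.712% of all cytosines. The motifs were read on the strand of the transcript only.

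Sites lay closer together at 3 h. Another site of the same library lay within 10 nt of 38.9 to 40.1% of sites at 1.5 h and of 50.3 to 51.7% at 3 h. In places every cytosine of a stretch was called. Such complete runs, defined after the data were seen as at least 5 consecutive cytosines of the strand that were all called in a library, held 2.30% ± 0.142 of the mRNA sites at 1.5 h and 8.60% ± 0.436 at 3 h. There were 10 to 11 runs per library at 1.5 h and 42 to 53 at 3 h, and the longest held 18 cytosines in each OGD/R 1.5 h library and 30 in each OGD/R 3 h library. As many as 25 genes had a complete run in every OGD/R 3 h library and in no OGD/R 1.5 h library, and 0 genes showed the opposite. Of the sites in runs, 10.5% ± 5.54 lay in the start codon region at 1.5 h and 45.8% ± 6.95 at 3 h. Outside the runs, the start codon region still differed, at 23.6% ± 1.60 and 29.7% ± 2.00, and so did CHH, at 37.8% ± 1.18 and 40.9% ± 1.20.

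**Figure D5:**
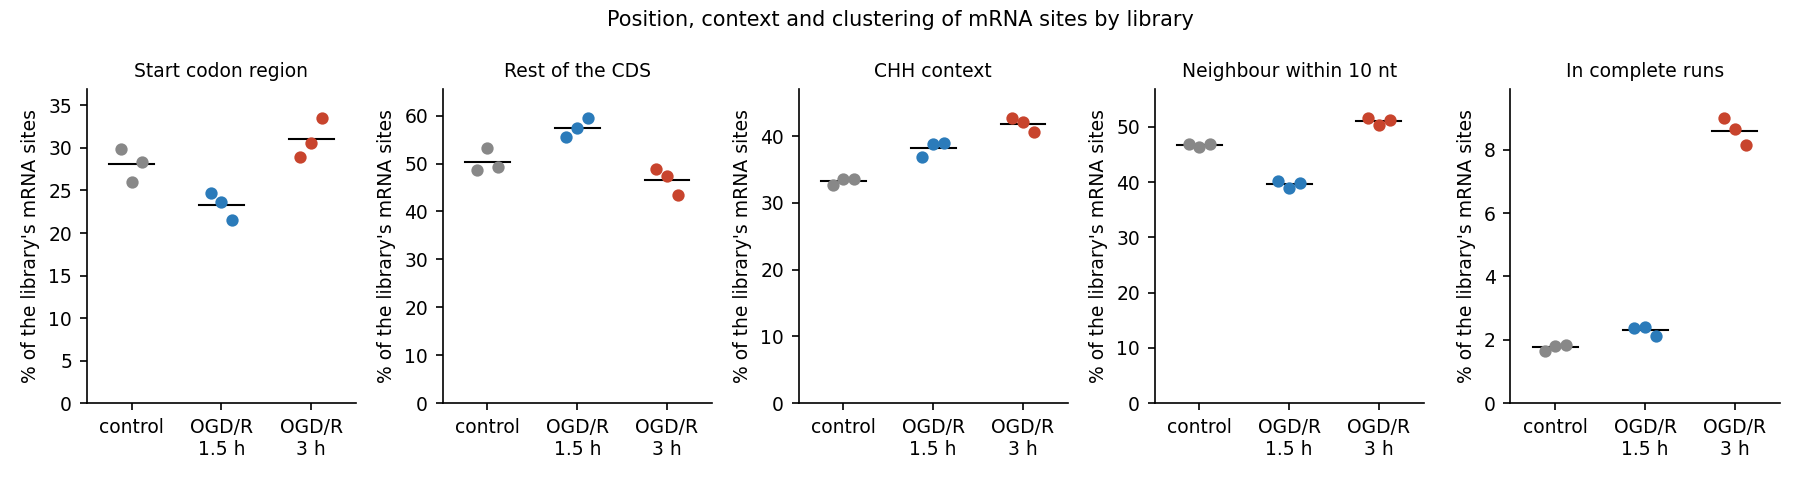
Share of each library's mRNA sites (points, with the mean of each group as a bar) in the start codon region, in the rest of the coding sequence (CDS), in the CHH context, with another site within 10 nt and in complete runs, for control and both deprivation times. The deprivation times do not overlap in any panel, and only the OGD/R 3 h libraries exceed 8% in complete runs.

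Windows of 30 nt with most called cytosines are printed here for 6 genes with more sites at 3 h, to show how complete the runs were. Capitals mark cytosines called in all 3 OGD/R 3 h libraries, and the coordinates are those of mm10.
Hbb-bs, chr7:103827866-103827895, minus strand, start codon region: CaaCCCCagaaaCagaCatCatggtgCaCC
S100a8, chr3:90669531-90669560, plus strand, start codon region: CtttCgtgaCaatgCCgtCtgaaCtggaga
Tmsb4x, chrX:167209108-167209137, minus strand, start codon region: tCagaCtCtCCtCgttCgCgCagCtCgCtC
Actb, chr5:142906680-142906709, minus strand, start codon region: CaCCCgCgagCaCagcttCtttgCagCtCC
Anxa1, chr19:20390648-20390677, minus strand, start codon region: cttccagtCtgaaaCCatCtgagCagagtC
Fcgbp, chr7:28086645-28086674, plus strand, coding sequence: CtacacaagagctgtgcgtgtggtggcCCa

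In the Hbb-bs window all 11 of 11 cytosines were called in every OGD/R 3 h library, each with a score of 1000, and none in an OGD/R 1.5 h or control library. The S100a8 window gave the same picture with 7 of 7 cytosines at 1000. In Tmsb4x, 13 of 13 cytosines were called with scores of 2 to 957, and 1 of them was called in 1 OGD/R 1.5 h library. In Actb, 12 of 13 were called with scores of 2 to 162. In Anxa1 the 6 cytosines from position 9 of the window onward were called at 1000, and the 3 before them were not. Fcgbp, which rose most, had only 3 of 8 cytosines called in its densest window, and its sites were spread over the coding sequence. The first gene among the falls, Brpf3, had no dense window either, since of the 5 cytosines in chr17:28814605-28814634 1 was called in all OGD/R 1.5 h libraries. Each of these windows occurs once in the assembled mm10 chromosomes.

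Other genes with a complete run in every OGD/R 3 h library only were Eef1a1 (10 to 21 cytosines), Rpl8 (12 to 15), Ywhaz (12), Cyba, Rhob (11 each), Calr, H2-D1, Ucp2 (10 each) and the linker histone genes H1f2 (9 to 14), H1f3 (8) and H1f5 (5). Histone genes have near-identical copies. In the opposite direction no gene qualified, but 3 genes had complete runs in all 6 libraries. These were Lars2, the mitochondrial leucyl-tRNA synthetase, with 30 to 33 cytosines at 1.5 h and 43 at 3 h, Tmem38b, with 18 and 23, and Rabggtb, with 11 and 14. They were chosen after their values were seen.

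The scores of mRNA sites were higher at 3 h. The median score was 7 in each OGD/R 1.5 h library and 12, 13 and 11 in the OGD/R 3 h libraries, and 1.53% ± 0.134 and 3.69% ± 0.193 of the sites were at the cap. Outside complete runs the medians were 7 and 10 to 11. Within complete runs the order was the other way, with medians of 962 to 1000 at 1.5 h and 134 to 297 at 3 h. These medians are over different genes and do not follow the same sites. Runs lay in 7 to 8 genes per library at 1.5 h and in 35 to 46 at 3 h. At 1.5 h Lars2, Tmem38b and Rabggtb alone held 30 to 33, 18 and 11 run cytosines per library. At the sites found in every library, the scores went in both directions. Of the 203 sites in 121 genes that were called in all 6 libraries, 26 (12.8%) had a higher score in every OGD/R 3 h library than in every OGD/R 1.5 h library, and 31 (15.3%) had a lower one. The median log2 change of (score + 1) was 0, with an SD over sites of 1.38, and 35 sites were at the cap in all 6 libraries, where no change could be seen.

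Of the largest rises at shared sites 4, and of the falls 5, are printed with 10 nt on either side and the site in capitals, from chr17:35263121 (H2-D1), chr9:123462078 (Lars2), chr7:127489508 (Fbrs) and chrM:14564 (CYTB), which rose, and chr11:77777358 (Myo18a), chr3:136670277 (Ppp3ca), chr19:60762157 (Eif3a), chr6:35539585 (Mtpn) and chr2:84650520 (Ctnnd1), which fell.
H2-D1, start codon region: cagatgggggCgatggctccg
Lars2, 3′ UTR: tgttcacccaCtaatagggaa
Fbrs, coding sequence: tgggtccgtcCccctgaaact
CYTB, coding sequence: aaatatcattCtgaggtgcca
Myo18a, start codon region: agatggcgggCggaaggagaa
Ppp3ca, 5′ UTR: tgccgcggccCcggcggcgcc
Eif3a, stop codon region: tcctggagagCtgagaaagat
Mtpn, start codon region: ttcatgtgggCcctgaaaaac
Ctnnd1, 5′ UTR: aggaaagatcCtggaacgagg

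The H2-D1 site had scores of 3, 3 and 11 at 1.5 h and 182, 192 and 28 at 3 h, a log2 change of 4.13. The Lars2 site had 69, 101 and 242 and was at the cap in every OGD/R 3 h library, so that its log2 change of 3.06 is limited by the cap. The 21 nt around it occur 7 times in the nuclear chromosomes, and reads of these copies may not be told apart. The site in the mitochondrial CYTB, a subunit of complex III, had 94, 285 and 187 and was likewise at the cap at 3 h. Fbrs had 178, 67 and 155 against 1000, 795 and 504.

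Among the falls, the Myo18a site had scores of 86, 518 and 136 at 1.5 h and 12, 14 and 3 at 3 h, a log2 change of -4.32. Ppp3ca, the catalytic subunit of calcineurin, had 656, 656 and 301 against 52, 54 and 33. Eif3a, a subunit of the initiation factor eIF3, had 1000, 887 and 717 against 23, 61 and 370, and its 21 nt occur 3 times in the nuclear chromosomes. Mtpn had 64, 32 and 23 against 5, 5 and 1, and Ctnnd1 (p120-catenin) 652, 881 and 657 against 46, 119 and 124. In the control libraries the Myo18a, Ppp3ca, Eif3a and Ctnnd1 sites had scores of 142 to 1000, above every OGD/R 3 h score of the same site except the 370 of Eif3a, where control had 481, 583 and 292.

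Among the sites called in every library of 1 group and in none of the other, those with the highest scores are given next. At 3 h, 93 such sites were tied at 1000 in every OGD/R 3 h library, and ties were taken in alphabetical order. The first 5 by this rule were neighbouring cytosines of the Anxa1 run printed above. At 1.5 h they were single sites in 4 genes, at chr8:84842710 (Calr), chr11:50297308 (Canx), chr2:143990052 (Rrbp1) and chr9:46229886 and chr9:46230045 (Apoa1), shown with the site in capitals.
Calr, stop codon region: aagatgaggaCgaagaagatg
Canx, coding sequence: aagagaagaaCaagagggatg
Rrbp1, coding sequence: aaggagaaaaCcgtggagaag
Apoa1, first site, coding sequence: tgactcgggaCttctgggata
Apoa1, other site, coding sequence: cgcctctgggCgccgagctgc

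The Calr, Canx and Rrbp1 sites had a score of 1000 in every OGD/R 1.5 h library and were not called in any OGD/R 3 h or control library. The Apoa1 sites had 1000, 1000 and 991 and 975, 1000 and 1000. Calr, whose number of sites rose at 3 h, thus lost its highest-scored site of 1.5 h. The start codon region held 53.8% of the sites found in every OGD/R 3 h library and no OGD/R 1.5 h library, and 43.9% of those with the opposite pattern.

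Outside mRNA, the share of sites did not separate the groups. It was 34.0 to 38.1% of all sites at 1.5 h and 32.2 to 35.8% at 3 h. Within noncoding RNA the groups differed by class. Small nucleolar RNAs, which guide modification of rRNA, held 717 ± 48.0 sites in 82 to 86 genes at 1.5 h and 859 ± 70.5 sites in 113 to 121 genes at 3 h. Genes annotated as small nuclear RNA held 31 to 41 sites against 124 to 154, and miRNA genes 6 to 14 against 41 to 54. The annotation counts Rnu3a, Rn7sk and Rnu7 among the small nuclear RNAs. Rnu3a alone held 18, 18 and 20 sites at 1.5 h and 29, 28 and 28 at 3 h. Sites on tRNA, at 84 to 94 against 86 to 111, overlapped, as did those on rRNA. Of 571 features outside mRNA with a site, 89 (15.6%) were called with more sites at 3 h and 28 (4.9%) with fewer. Among these, 41 of 131 snoRNAs were called with more and 6 with fewer, and 7 of 18 snRNAs and 5 of 15 miRNA genes with more and 0 with fewer.

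The nuclear long noncoding RNA Malat1 rose most, from 44, 45 and 53 sites to 116, 122 and 102, with 34 to 58 in control. The small nuclear RNA genes Gm24497 and Gm25360 went from 4, 0 and 6 and from no site to 22, 20 and 21 and to 12, 17 and 16. Snord88a had no site at 1.5 h and 16, 16 and 17 at 3 h. In the other direction, the snoRNA gene Gm25835 had 36, 35 and 36 sites at 1.5 h and none at 3 h, with 16 to 36 in control. Snord118, the U8 snoRNA, had 15, 14 and 9 against 0, 0 and 3, and LOC115487884 had 24, 20 and 18 against 12, 1 and 14. A pair of other features among the 5 largest falls rested on 1 library each and were not called. Antisense to Gm36876, 37 sites stood in OGD/R 1.5 h replicate 2 alone, and Gm25117 had 33 sites in every library but OGD/R 3 h replicate 2, where it had none. The median score of sites outside mRNA was 69.7 ± 3.06 at 1.5 h and 165 ± 16.7 at 3 h, and the mitochondrial chromosome held 49 to 75 and 98 to 104 sites.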

How the data were processed

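RNA bisulfite sequencing libraries labelled OGD/R 3 h and OGD/R 1.5 h (3 each) were compared, with 3 control libraries as background. The authors trimmed reads with Cutadapt 1.9.3, used meRanGh for alignment to mm10 and meRanCall to call the sites of each library. How the mock libraries entered the calls is not given in the sources used here. The deposited score of each site is the only value in the files, and the authors did not scale it for depth.

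Sites were assigned with Python 3.11.15 to RefSeq protein-coding transcripts of mm10 (21013 genes, same strand, longest coding sequence first). Sequences are from the RefSeq copy of the mm10 assembly, read with pysam 0.24.0. Of 13833 distinct mRNA sites in the 6 libraries, 8 lay in more than 1 gene and were given to the first by this order. Gene calls, rarefaction and runs were tested on simulated data. Figures were drawn with matplotlib 3.10.9. The members and the gene lists were chosen with earlier results of these data known. Named were the 10 largest rises and falls among called genes, up to 4 members per list, 5 sites and 5 features per direction. Some items that this rule names are not reported here. Alternatives were each library left out, a score of at least 10, sites in at least 2 libraries, isolated sites, equal numbers of sites, 50 nt codon regions, neighbours within 5 nt, other averages, shares in place of counts and a ratio of at least 2.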

Additional observations from a re-analysis of the deposited data

How the results depend on the processing

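No paired analysis was possible because the results come from no test and the libraries of a group share only a replicate number. The ratios and the differences in share kept their direction under the alternatives run, while the balance of gene calls turned around when sites were taken as shares of the library. The difference in the start codon region moved by less than the SD between libraries under all of them. The number of lists with more rises than falls (15 of 23) was 14 to 18 with 1 library left out. It stayed within 1.5 times of 15 under all alternatives run for it. This limit is wide, and single lists could turn around, as translation factors did with shares of the library. Ratios are those of OGD/R 3 h over OGD/R 1.5 h, and differences are OGD/R 3 h minus OGD/R 1.5 h in percentage points.

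With a score of at least 10, the ratio was 1.61 for mRNA sites, 0.973 for genes, 1.65 for sites per gene and 1.08 for the median score. The share of sites outside mRNA then differed by -3.76, CHH by 6.70, CNGGG by -0.596 and sites with a neighbour by 14.04, and 238 genes were called with more sites and 127 with fewer. With sites in at least 2 libraries of a group, the same ratios were 1.57, 0.947, 1.66 and 1.32, the differences outside mRNA, in CNGGG and with a neighbour were -4.14, -0.278 and 14.3, and 643 genes were called with more and 554 with fewer, each group then being a single set without library spread. Isolated sites gave ratios of 1.104, 0.864 and 1.28 for sites, genes and sites per gene, and 258 genes with more and 228 with fewer. Equal numbers of sites gave 0.796 for genes and 1.26 for sites per gene. As shares of the library, 362 genes were called with more sites and 398 with fewer, so that the excess of rises over falls in the main counts (418 and 293) turned around.

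The share of sites found in 1 group only was 88.7% (3 h) and 83.7% (1.5 h) with a score of at least 10 and 89.2% and 83.0% with sites in at least 2 libraries. Leaving out 1 library moved it between 81.0 and 85.3% at 3 h and between 77.6 and 82.3% at 1.5 h. With the same libraries left out, 445 to 477 genes were called with more sites and 310 to 385 with fewer, since fewer libraries have to be apart. The score difference on the log2 scale was 0.43 in place of the ratio of medians, and the change at shared sites was -0.0653 as a mean over sites.

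The following were chosen after seeing the data. Without complete runs, sites per gene had a ratio of 1.45 and the median score of 1.52, sites with a neighbour differed by 8.21, 79.9% of the OGD/R 1.5 h sites were found at that time only, and the median change at shared sites was -0.0903. The neutrophil and erythroid lists then kept 1 member each called with more sites, against 5 and 3 in the main count. Without marker genes of other cell types, CNGGG differed by -0.255, sites with a neighbour by 12.3, and the median score by a ratio of 1.38. Without sites at the cap in all libraries, the median change at shared sites was 0.058. Of 200 values of the named genes under the alternatives, 197 kept their direction and 3 were at 0, for Hbb-bs with isolated sites or without complete runs and for Homer2 with isolated sites. The depth of the libraries is unknown, and a score at the cap hides further change.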
